A study of Mus musculus with 16 samples.

Results

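The Zfp genes are mouse genes for zinc finger proteins that carry a number as their name. A total of 244 of them were examined, taken as the symbols made of Zfp and a number that were listed in all 16 libraries with a mean level of at least 2 FPKM (fragments counted per unit of transcript length and corrected for library depth). They stand among 303 such symbols and 13396 genes that were listed in all 16 libraries. Since the members were chosen by their mean level, the levels are given as a description. The members were also chosen with earlier results of these data known, so their shares of negative differences are a description too. The tissues were cortex and hippocampus of wild-type (WT) fetuses at embryonic day 18.5, from which RNA was sequenced in 5 libraries labelled EE (enriched environment) and 5 labelled SH (standard habitation) from cortex, and 3 EE and 3 SH libraries from hippocampus. The series title places the enrichment before birth and names a pathway of the transcription factor AHR, which binds ligands, and the kinase Src. The labels name neither fetuses nor litters, so a p-value covers no more than the spread among libraries, which may be technical. The comparison of EE with SH asked which transcripts differed after enrichment, and that of hippocampus with cortex which ones differed between the tissues.

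A classical C2H2 zinc finger holds 1 zinc ion between a pair of cysteines and a pair of histidines, and a row of such fingers reads a longer stretch of DNA, one finger after the next. In mammals many of these proteins also carry a KRAB box, which recruits the corepressor TRIM28 (KAP1) and, through it, the histone methyltransferase SETDB1, so that the bound DNA is packed into heterochromatin. KRAB zinc finger genes lie in clusters that grew by duplication, and many of their products silence transposable elements, while others keep the methylation of imprinted loci. Other Zfp symbols belong to old single-copy genes, among them transcription regulators of the developing brain and proteins that act on RNA, ribosomes or the mitotic spindle.

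The authors listed 15996 genes in each library of cortex replicates 1 to 3, 13448 in cortex replicates 4 and 5 and 15247 in hippocampus, and these 3 blocks were compared apart. Whole reads could be recovered from the steps of the FPKM values, for genes that held 84.6 to 87.9% of the summed FPKM of a library. These reads summed to 10683140 to 20098661 per library, which is less than its full depth. The median per Zfp gene and library was 482 reads in cortex replicates 1 to 3, 350 in cortex replicates 4 and 5 and 536 in hippocampus. Cortex SH replicate 3 stood apart from the other libraries, with a summed FPKM of 511438 against 339726 to 396658 elsewhere and a summed level of 4 globin genes of red cells of 4058 FPKM against 824 to 1789 FPKM, so counts and medians of cortex replicates 1 to 3 are also given without it. Markers of hippocampus summed to 23.8 to 50.4 FPKM in the hippocampal libraries and to 4.41 to 8.70 FPKM in the cortical ones, and neuronal markers summed to 1646 to 3329 FPKM in all 16. Choroid plexus markers were uneven in hippocampus, at 5089, 10517 and 40.8 FPKM in EE replicates 1 to 3 and 16973, 41.3 and 151.8 FPKM in SH replicates 1 to 3, and their part in the results was not tested.

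Most Zfp genes had low to moderate transcript levels. Their median over the 16 libraries was 5.93 FPKM, against 9.68 FPKM for the 12672 genes with at least 1 FPKM, and 149 had at least 5 FPKM, 58 at least 10 and 17 at least 20. The highest were Zfp428 with 59.0 FPKM, Zfp706 with 54.2, Zfp637 with 37.3, Zfp57 with 35.7, Zfp414 with 35.7 and Zfp358 with 34.4. The genes just inside the threshold were Zfp526 with 2.20 FPKM, Zfp51, Zfp959 and Zfp783 with 2.18 each, Zfp446 with 2.16 and Zfp667 with 2.08, and those just outside were Zfp970 with 1.97 FPKM, Zfp112 with 1.96 and Zfp454 with 1.94. In the longest coding transcript of each gene, a strict letter pattern found a KRAB A box in 91 genes and C2H2 fingers without that box in 145, while 6 had neither and 2 had no coding transcript. The pattern misses variant boxes, such as those of Zfp37, Zfp57 and Zfp932, which are counted here among the other C2H2 genes. The KRAB genes had a median of 11 fingers and 4.98 FPKM, and the other C2H2 genes a median of 9 fingers and 7.12 FPKM. The 244 genes lie on 20 chromosomes, with 65 on chromosome 7 and 29 on chromosome 17, and 242 are annotated as protein coding. Close copies are common among them: 30 genes share at least 20% of their 50-base windows with other genes, so the counting of their reads is uncertain, and for Zfp708 and Zfp935 every such window is shared.

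In hippocampus the Zfp genes were on the low side in EE almost throughout. Their median level was 5.77, 5.87 and 5.44 FPKM in the 3 EE libraries and 6.73, 6.68 and 7.36 FPKM in the 3 SH libraries, so every EE library lay below every SH library. The fitted EE minus SH difference on the log2(FPKM + 1) scale was negative for 211 of 244 genes (86.5%), against 52.8% of the 13344 genes tested, and its median was -0.18, against -0.01. No single gene passed the test: limma called 0 Zfp genes and 0 genes at all (0%) at a Benjamini-Hochberg adjusted p of 0.05, limma-voom, run on the reads recovered, called 0 too, and the smallest adjusted p of a Zfp gene was 0.9996. At an unadjusted p under 0.05 there were 59 Zfp genes lower in EE, where 3.07% of all genes were, and 2 higher, where 0.704% were. In 89 genes (36.5%) every EE library was below every SH library, against 7.32% of all genes, and in 4 genes (1.64%) every one was above, against 2.59%. In whole tissue, fewer cells of a type and less RNA per cell cannot be told apart.

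Zfp719, a KRAB gene with 13 fingers on chromosome 7 (chr7:43579610-43593235, mm10), had the smallest p in hippocampus. Its level was 1.58, 2.59 and 1.20 FPKM in the EE libraries and 5.21, 3.68 and 5.57 FPKM in the SH libraries, with no overlap, and the log2 difference was -1.08 ± 0.22 (SE; limma, unadjusted p = 0.00175). Zfp87, a KRAB gene with 15 fingers on chromosome 13, had 5.22, 5.06 and 4.54 FPKM in EE and 7.39, 7.28 and 8.44 FPKM in SH, a difference of -0.55 ± 0.11. Here too the highest EE library stayed below the lowest SH library. Zfp37, whose KRAB box the pattern misses, had 4.03, 4.67 and 3.76 FPKM in EE and 6.85, 5.92 and 7.42 FPKM in SH, again without overlap, with a difference of -0.58 ± 0.13. The next smallest p values among lower genes were those of Zfp763 (-0.70), Zfp799 (-0.55), Zfp189 (-0.63), Zfp748 (-0.51), Zfp85 (-0.56), Zfp866 (-0.43) and Zfp74 (-0.40). Among higher genes Zfp580 came first, with 32.1, 31.7 and 35.1 FPKM in EE and 26.5, 30.6 and 26.9 FPKM in SH and a difference of 0.23 ± 0.10, followed by Zfp628 with 0.26 ± 0.11.

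**Figure D1:**
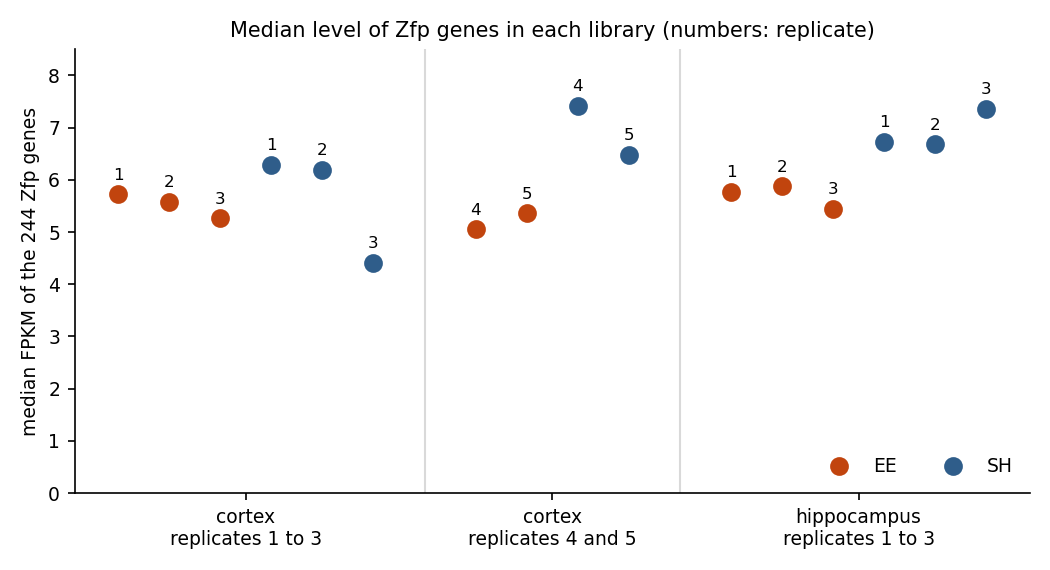
The median FPKM of the 244 Zfp genes is drawn for each library, with EE in orange, SH in blue and the replicate number above each point. EE lies below SH in hippocampus (5.44 to 5.87 against 6.68 to 7.36 FPKM) and in cortex replicates 4 and 5 (5.05 and 5.36 against 7.41 and 6.48 FPKM), while in cortex replicates 1 to 3 SH replicate 3 is the lowest library, at 4.42 FPKM.

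Cortex replicates 4 and 5 gave the same direction and single calls. The median Zfp level was 5.05 and 5.36 FPKM in the EE libraries and 7.41 and 6.48 FPKM in the SH libraries. The difference was negative for 197 of 244 genes (80.7%), against 51.9% of the 12576 genes tested, with a median of -0.34 against -0.01. With 2 libraries a treatment, limma called 26 Zfp genes at an adjusted p of 0.05, where it called 3.46% of all genes. Of these, 23 fell in EE, with log2 differences of -1.17 to -0.71, where 1.79% of all genes did, and 3 rose, where 1.67% did. In 153 genes (62.7%) both EE libraries were below both SH libraries, against 24.9% of all genes, and in 20 (8.20%) both were above, against 21.7%. At an unadjusted p under 0.05 there were 99 Zfp genes lower, where 9.69% of all genes were, and 9 higher, where 7.43% were. The calls rested on both SH libraries: without SH replicate 4 or without SH replicate 5, 0 Zfp genes were called by limma and the smallest adjusted p was 0.121 or 0.092, while 30 were called without EE replicate 4, where 7.90% of all genes were, and 89 without EE replicate 5, where 14.9% were. With SH replicate 4 or SH replicate 5 left out, 0.263% and 0.183% of all genes were called. In such a fit the lone library is assumed to vary like the others. Removing from each library its smooth trend on transcript length and GC content also left 0 calls, of Zfp or other genes, with a median of -0.25 and 181 negative differences. Some markers of other cell types moved in the same block: of 51 marker genes tested, limma called 7 higher in EE and 0 lower, namely Ttr and Clic6 of choroid plexus (2.03 and 0.96), Hes5 of progenitors (1.25), Olig1 of the oligodendrocyte lineage (0.87), Cldn5 of endothelium (0.81), C1qa of microglia (0.75) and Hba-a2 of red cells (0.67). The other markers of endothelium, Pecam1 and Flt1, were negative (-0.29 and -0.17). Among oligodendrocyte markers Olig2 was positive (0.42), and Pdgfra and Sox10 were negative (-0.09 and -0.03). Of progenitor markers Sox2 and Hes1 were positive (0.25 and 0.50). Pax6, Eomes, Mki67 and Top2a were negative (-0.01, -0.49, -0.43 and -0.14), and none of these other markers was called. The choroid plexus sum was 693.9 and 30.5 FPKM in EE replicates 4 and 5 and 33.6 and 37.2 FPKM in the SH libraries, and the sum of 3 endothelial markers was 54.7 to 76.5 FPKM in EE and 40.3 to 42.4 FPKM in SH. The part of these cells in the Zfp differences was not tested.

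The strongest call was again Zfp719, with 0.992 and 2.03 FPKM in EE and 4.47 and 4.61 FPKM in SH, so that both EE libraries lay far below both SH libraries (log2 difference -1.17 ± 0.23, limma adjusted p = 0.000104). Zfp84, a KRAB gene, fell to 2.27 and 4.08 FPKM in EE, against 7.43 and 7.47 FPKM in SH, a difference of -1.05 ± 0.23 (adjusted p = 0.001). Zfp37 had 3.29 and 4.41 FPKM in EE and 8.23 and 8.85 FPKM in SH, and Zfp87 had 3.90 and 5.47 FPKM in EE and 9.71 and 9.64 FPKM in SH, with adjusted p values of 0.00261 and 0.00527. None of these 4 overlapped between the treatments. Zfp365, whose product binds the neuronal scaffold protein DISC1, fell to 3.46 and 3.99 FPKM in EE, against 7.73 and 8.79 FPKM in SH (-0.97 ± 0.23, adjusted p = 0.00323). The other genes among the 10 lower ones with the smallest p were Zfp507 (-0.99), Zfp652 (-0.95), Zfp369 (-0.91), Zfp146 (-0.80) and Zfp26 (-0.88), and the calls of Zfp652 and Zfp369 were also lost without EE replicate 4. Of the 23 genes that fell, 14 were KRAB genes. In hippocampus 23 had a negative difference, as did 86.5% of all 244 Zfp genes. In cortex replicates 1 to 3 there were 13, where 58.6% of all Zfp genes were negative. Of the genes named here that were positive there, Zfp507 and Zfp26 went from 0.16 and 0.04 to -0.02 and -0.25 without cortex SH replicate 3. Zfp652 and Zfp369 stayed positive (0.19 and 0.05).

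The 3 genes that rose in cortex replicates 4 and 5 all did so mainly in 1 library. Zfp580 had 53.0 and 18.4 FPKM in EE replicates 4 and 5 and 17.0 and 15.8 FPKM in SH (log2 difference 0.90 ± 0.21, limma adjusted p = 0.00261). Zfp771 had 26.0 and 8.67 FPKM in EE and 8.46 and 6.68 FPKM in SH (0.92 ± 0.22, adjusted p = 0.00335), and Zfp428 had 85.2 and 40.3 FPKM in EE and 34.7 and 35.9 FPKM in SH (0.72 ± 0.21, adjusted p = 0.0251). In each of them EE replicate 4 was high and EE replicate 5 was close to the SH libraries, and without EE replicate 4 the differences were 0.16, 0.18 and 0.19, with adjusted p values of 0.715, 0.675 and 0.631. In cortex replicates 1 to 3 the same genes had differences of -0.39, -0.43 and -0.45, and of -0.12, -0.18 and -0.12 without SH replicate 3.

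In cortex replicates 1 to 3 the Zfp genes were close to the rest of the genes over all 6 libraries, and more often lower in EE without SH replicate 3. The median level was 5.72, 5.57 and 5.27 FPKM in EE and 6.29, 6.20 and 4.42 FPKM in SH, with SH replicate 3 below all EE libraries and the other SH libraries above them. The difference was negative for 143 of 244 genes (58.6%), against 53.3% of the 12890 genes tested, with a median of -0.06 against -0.03. Limma called 0 genes (0%), and limma-voom called 0 as well; at an unadjusted p under 0.05 there were 15 Zfp genes lower and 2 higher in EE, where 7.37% and 1.92% of all genes were. The 40 genes (16.4%) with all EE libraries below all SH libraries and the 11 (4.51%) with all above compare with 18.6% and 11.2% of all genes. Without SH replicate 3 the difference was negative for 200 Zfp genes (82.0%, against 63.1% of all genes) and the median was -0.14, with 0 Zfp genes among 12 called, 103 genes (42.2%, against 25.6%) had all EE libraries below and 12 (4.92%, against 12.1%) above, whereas without SH replicate 1 the median was 0.01. Lower genes with the smallest p were Zfp954 (-0.49 ± 0.14), Zfp830 (-0.47 ± 0.13) and Zfp105 (-0.44 ± 0.12), and higher ones were Zfp207 (0.38 ± 0.14) and Zfp704 (0.75 ± 0.31), each with a limma adjusted p of 0.414.

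Taking all 5 cortex replicates together, with the set of replicates as a term, limma called 0 Zfp genes among 1 gene called of 12539 (0.00798%), and limma-voom called 0. There were 55 Zfp genes lower in EE at an unadjusted p under 0.05, where 5.49% of all genes were, and 2 higher, where 1.95% were, and 181 of 244 differences were negative, with a median of -0.14. Without SH replicate 3 there were 206 negative differences and the median was -0.22. Zfp105, a C2H2 gene, had 2.66, 2.83, 2.74, 2.54 and 2.83 FPKM in EE replicates 1 to 5 and 3.69, 4.08, 4.47, 4.56 and 4.58 FPKM in SH replicates 1 to 5, with a difference of -0.50 ± 0.08 (limma adjusted p = 0.185). Zfp786, a KRAB gene, had 2.42, 2.65, 2.26, 2.13 and 2.35 FPKM in EE and 3.65, 3.50, 3.39, 4.48 and 4.04 FPKM in SH (-0.51 ± 0.09, adjusted p = 0.185). In both genes each EE library was below the SH libraries of its own set. Zfp830 (-0.52), Zfp954 (-0.48) and Zfp87 (-0.73) had the same adjusted p of 0.185. The difference between the sets of cortex replicates was not tested.

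The differences of cortex replicates 4 and 5 and of hippocampus, which share no library, ran in parallel across the Zfp genes. Spearman's rho between them was 0.757 over the 244 genes and 0.633 over 12232 genes tested in every block, as a description across genes, which are not independent. With cortex replicates 1 to 3 the rho was 0.206 for hippocampus and 0.025 for cortex replicates 4 and 5, against -0.285 and -0.406 over all genes. Leaving out SH replicate 3 gave 0.571 and 0.349 for the Zfp genes and -0.0034 and -0.145 over all genes. The differences of all genes followed transcript length in every block, with a rho of 0.754 in cortex replicates 1 to 3, -0.524 in cortex replicates 4 and 5 and -0.417 in hippocampus, and among Zfp genes the rho was 0.597, -0.305 and -0.170. Without SH replicate 3 the rho in cortex replicates 1 to 3 was 0.332 among Zfp genes and 0.503 over all genes. The Zfp rho with mean FPKM was 0.148 in cortex replicates 1 to 3, 0.307 in replicates 4 and 5 and 0.463 in hippocampus. Once the trend on length, GC content and mean level was removed, the median Zfp difference was -0.10, -0.25 and -0.14 in that order. The counts of negative differences were then 170, 181 and 188 of 244. The medians of all genes were then -0.0034, 0.00026 and -0.0027.

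**Figure D2:**
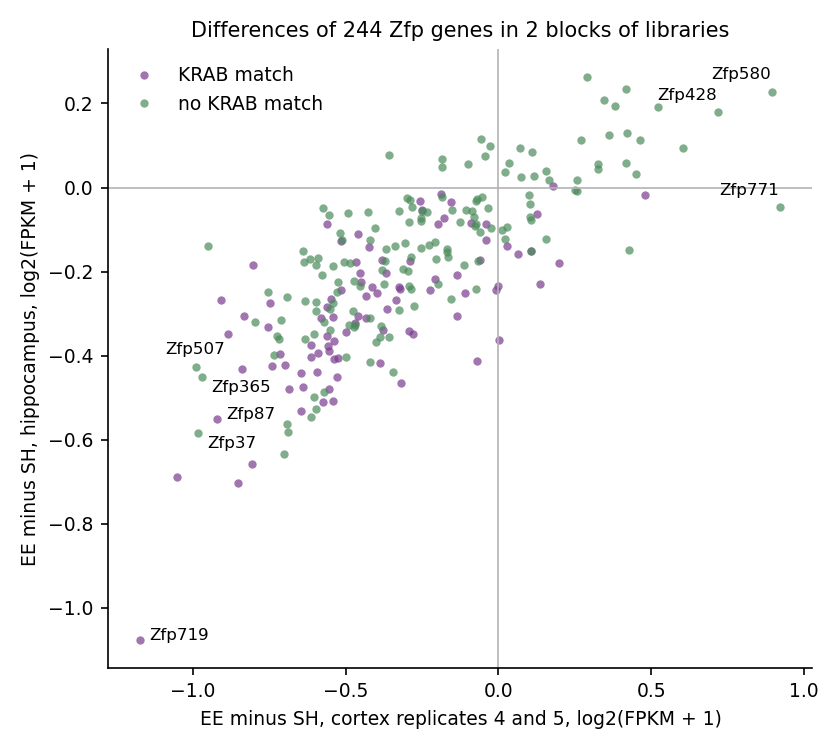
Each point is 1 of 244 Zfp genes, with its EE minus SH difference of log2(FPKM + 1) in cortex replicates 4 and 5 on the x axis and in hippocampus on the y axis, and KRAB genes in purple. The points run from Zfp719 at the lower left (-1.17 and -1.08) to Zfp580 at the upper right (0.90 and 0.23), and Spearman's rho is 0.757.

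A total of 10 Zfp genes had every EE library below every SH library in all 3 blocks, 4.10% of them against 0.76% of all genes: Zfp58, Zfp85, Zfp87, Zfp101, Zfp689, Zfp719, Zfp747, Zfp830, Zfp873 and Zfp952. In Zfp58, Zfp85, Zfp87, Zfp830 and Zfp952 this held across tissues and sets, all 8 EE libraries lying below all 8 SH libraries, which 0.213% of all genes did. Zfp207 was the 1 gene apart and higher in EE in all 3 blocks (0.410%, against 0.0981% of all genes), and 0 Zfp genes were above SH over all 16 libraries (0.0395% of all genes were). Without cortex SH replicate 3, 49 Zfp genes (20.1%, against 2.23%) were apart and lower in all 3 blocks, and Zfp207 was the 1 gene higher (0.410%, against 0.139%). Promoter windows of 4 of these genes are shown because they hold the letters that most of these genes share, 3 for genes lower in EE and 1 for the gene higher in EE. They are RefSeq windows of build GRCm38.p6 from 250 bases before to 50 after the gene start, written 5′ to 3′ on the strand of the gene, with capitals for a CCAAT box (CCAAT or ATTGG) and for the core of the YY1 motif (AAGATGG or CCATCTT). The windows are chr17:33394588-33394887 on the minus strand for Zfp101, chr7:127449109-127449408 on the minus strand for Zfp689, chr10:82047873-82048172 on the plus strand for Zfp873 and chr11:80383029-80383328 on the plus strand for Zfp207.
Zfp101: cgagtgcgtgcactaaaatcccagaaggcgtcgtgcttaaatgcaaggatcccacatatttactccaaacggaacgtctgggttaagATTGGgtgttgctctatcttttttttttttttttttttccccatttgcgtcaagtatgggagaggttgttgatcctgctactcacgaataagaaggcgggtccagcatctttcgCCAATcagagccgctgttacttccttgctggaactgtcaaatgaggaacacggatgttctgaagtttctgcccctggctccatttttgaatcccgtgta
Zfp689: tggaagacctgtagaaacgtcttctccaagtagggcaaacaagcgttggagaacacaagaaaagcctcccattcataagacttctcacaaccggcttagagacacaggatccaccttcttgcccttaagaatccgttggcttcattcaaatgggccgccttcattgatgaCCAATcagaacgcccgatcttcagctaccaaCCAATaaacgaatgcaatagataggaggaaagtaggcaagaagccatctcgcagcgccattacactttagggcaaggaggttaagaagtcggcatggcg
Zfp873: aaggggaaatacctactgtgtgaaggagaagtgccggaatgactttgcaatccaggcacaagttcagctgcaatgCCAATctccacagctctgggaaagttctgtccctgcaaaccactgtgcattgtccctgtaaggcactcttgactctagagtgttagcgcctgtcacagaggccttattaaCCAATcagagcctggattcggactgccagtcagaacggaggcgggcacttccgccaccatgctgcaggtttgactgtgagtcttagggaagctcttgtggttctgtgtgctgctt
Zfp207: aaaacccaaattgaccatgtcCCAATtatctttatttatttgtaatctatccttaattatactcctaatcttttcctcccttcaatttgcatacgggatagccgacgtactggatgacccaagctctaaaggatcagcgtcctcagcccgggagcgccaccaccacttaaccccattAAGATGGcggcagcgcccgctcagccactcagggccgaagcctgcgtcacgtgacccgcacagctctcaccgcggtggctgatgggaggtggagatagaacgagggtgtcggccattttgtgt

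Such a window was found for 202 of the 244 genes, not for Zfp87, and a match of letters in it is a description, not a shown binding site. Both strands were searched, and matches of different motifs could overlap. A CCAAT box stood in 8 of the 10 windows found among these 11 genes, in 94 of all 202 Zfp windows (46.5%), in 53.7% of 82 windows of KRAB genes and in 38.8% of 9640 windows of genes with at least 1 FPKM. The YY1 core stood in 24 Zfp windows (11.9%), against 7.22%. The GC box (GGGCGG) was in 49.0% of Zfp windows, against 66.7%, and the median window held 16 CpG, against 21. The core of the AHR response element (GCGTG) was in 89 Zfp windows (44.1%), against 52.8% of windows of genes with at least 1 FPKM and 32.5% of all 27025 windows. A TATA box (TATAAA) was in 1 window of the KRAB genes (1.22%), against 6.35%.

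Zfp830 had among the smallest p of the 10 genes in cortex replicates 1 to 3 and over all cortex replicates, and its treatments were apart in each block. In cortex replicates 1 to 3 its level was 3.18, 3.72 and 3.73 FPKM in EE and 5.12, 4.89 and 5.82 FPKM in SH. In cortex replicates 4 and 5 it was 3.10 and 3.90 FPKM in EE and 5.82 and 5.79 FPKM in SH, and in hippocampus 2.73, 3.91 and 3.31 FPKM in EE and 4.60, 4.80 and 5.87 FPKM in SH. The highest of all 8 EE libraries thus stayed under the lowest of all 8 SH libraries, and the differences were -0.47, -0.60 and -0.50 in the 3 blocks, none past the adjusted threshold. Zfp830 is a short gene (chr11:82764345-82765935, mm10) whose transcript shares no 50-base window with another gene. Zfp87 had 4.71, 6.08 and 3.68 FPKM in EE and 8.85, 7.51 and 7.01 FPKM in SH in cortex replicates 1 to 3, and Zfp719 had 2.26, 2.07 and 1.18 FPKM in EE and 3.93, 3.41 and 2.42 FPKM in SH there, with differences of -0.61 ± 0.18 and -0.59 ± 0.21. For these 2 genes the gap between the treatments was narrowest in this block. Zfp207 encodes BuGZ, a spindle protein that protects the checkpoint protein Bub3 at kinetochores. Its level was 22.2, 22.5 and 22.6 FPKM in EE and 19.4, 18.1 and 14.1 FPKM in SH in cortex replicates 1 to 3, and 30.7 and 23.7 FPKM in EE and 17.5 and 17.3 FPKM in SH in cortex replicates 4 and 5. In hippocampus it was 26.6, 26.8 and 26.9 FPKM in EE and 26.2, 24.1 and 24.8 FPKM in SH, a narrow gap, and the differences were 0.38, 0.60 and 0.09, the second with an adjusted p of 0.0782 (limma).

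**Figure D3:**
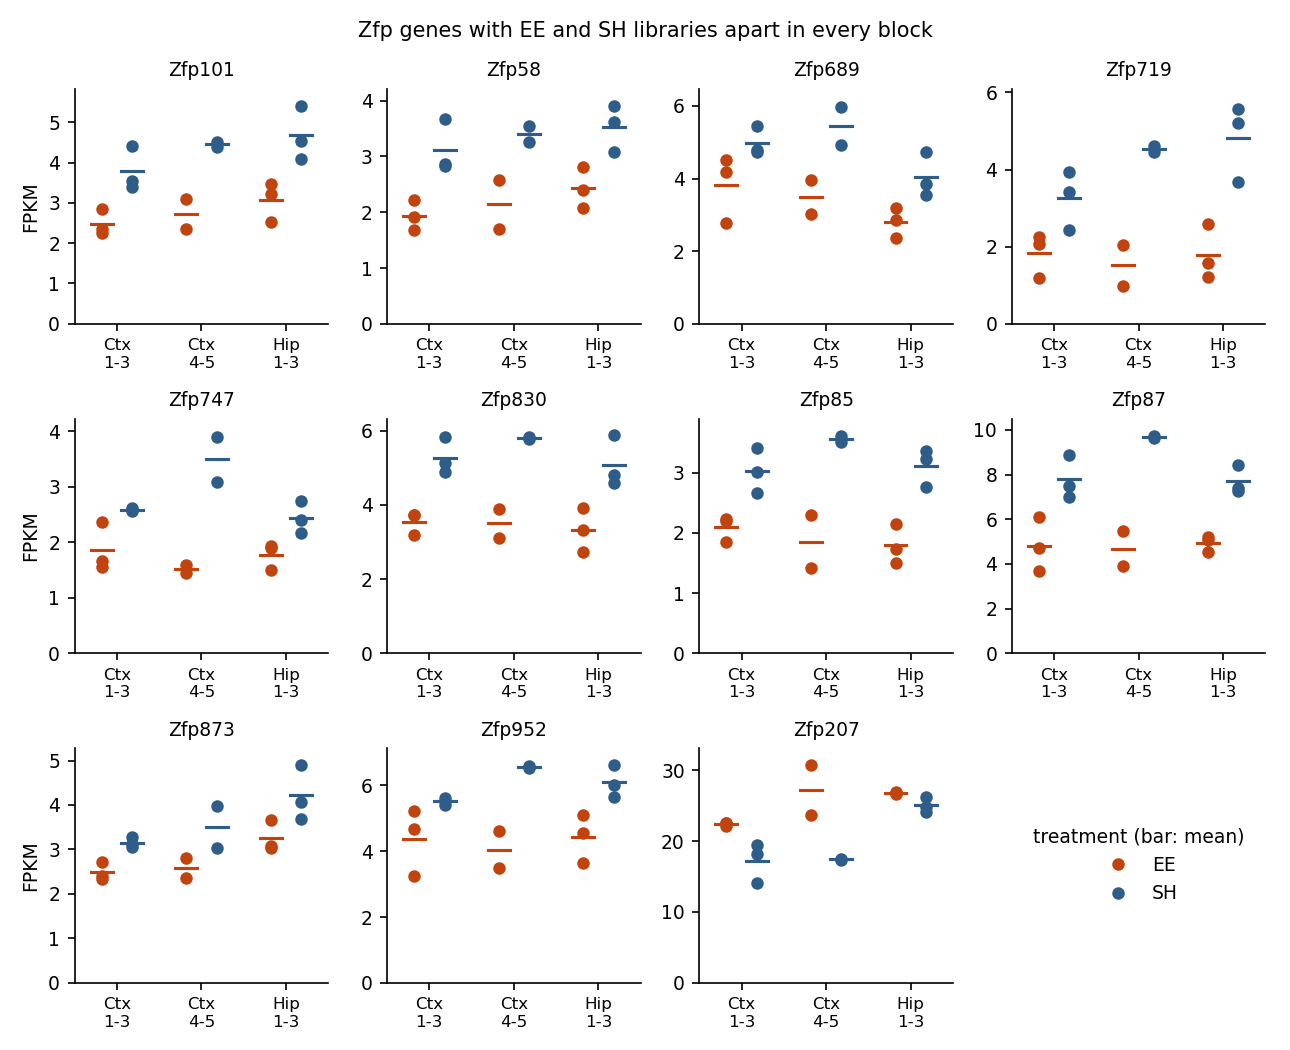
FPKM of the 11 Zfp genes whose EE (orange) and SH (blue) libraries do not overlap in any block is drawn per library, with a bar at each mean, for cortex replicates 1 to 3, cortex replicates 4 and 5 and hippocampus. EE is lower in 10 genes, as in Zfp87 (3.68 to 6.08 against 7.01 to 9.71 FPKM over all libraries), and higher in Zfp207.

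A group of 3 of the 10 lower genes, Zfp58, Zfp87 and Zfp85, lies in 1 stretch of chromosome 13 that holds 7 of the Zfp genes. In their order along mm10 these are Zfp58 (chr13:67490167-67500555), Zfp87 (chr13:67515781-67526177), Zfp748, Zfp738, Zfp65, Zfp85 (chr13:67747800-67755228) and Zfp273. Their hippocampal differences were -0.40, -0.55, -0.51, -0.12, -0.34, -0.56 and -0.31 in that order, and those of cortex replicates 4 and 5 were -0.50, -0.92, -0.54, -0.04, -0.29, -0.69 and -0.42, negative throughout, with Zfp738 the least. Those of cortex replicates 1 to 3 were -0.49, -0.61, -0.12, 0.17, -0.09, -0.38 and -0.36, and that of Zfp738 was -0.08 without SH replicate 3. Some of these genes have stretches found elsewhere: Zfp58 shares 50.2% of its 50-base windows with other genes and Zfp85 31.2%, while Zfp87 shares 9.59%. All 13 Zfp genes of chromosome 13 had negative differences in hippocampus, 12 in cortex replicates 4 and 5 and 10 in cortex replicates 1 to 3. On chromosome 7, the home of Zfp689, Zfp719 and Zfp747, the counts were 57, 53 and 51 of 65, and on chromosome 17, the home of Zfp101 and Zfp952, they were 25, 22 and 19 of 29. With SH replicate 3 left out, the counts in cortex replicates 1 to 3 were 12 on chromosome 13, 62 on chromosome 7 and 23 on chromosome 17. Across all Zfp genes 115 were negative in all 3 blocks (47.1%, against 14.3% of all genes), 58 of them KRAB genes, and 9 were positive in all 3 (3.69%, against 10.3%), among them Zfp207, Zfp326, Zfp384, Zfp628 and Zfp932. Without cortex SH replicate 3, 162 were negative in all 3 (66.4%, against 23.5%) and 7 positive (2.87%, against 10.6%).

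The genes with a match to the KRAB pattern, called KRAB genes here, had the lower differences. In hippocampus 90 of 91 KRAB genes were negative, with a median of -0.28, and 115 of 145 C2H2 genes without a match, with a median of -0.14. In cortex replicates 4 and 5 the counts were 82 of 91 and 110 of 145, with medians of -0.45 and -0.29, and limma called 14 KRAB genes lower and 0 higher, and 8 other C2H2 genes lower and 3 higher, where 1.79% of all genes were lower and 1.67% higher. In cortex replicates 1 to 3 they were 65 of 91 and 73 of 145, with medians of -0.11 and -0.01, and without SH replicate 3 they were 84 and 108, with medians of -0.20 and -0.09. The difference between the classes was not tested. KRAB genes also had a lower GC content (median 43.6%) than the other C2H2 genes (50.03%). GC content moved with the differences in hippocampus and in cortex replicates 4 and 5, with a rho over 244 genes of 0.486 and 0.305. With the number of fingers the rho was -0.416 and -0.346 over 242 genes. In cortex replicates 1 to 3 the rho was -0.114 with GC content and 0.010 with the number of fingers. There the rho with GC content was 0.201 without SH replicate 3. The shares of negative differences were also counted within ranges of GC content. In hippocampus 80 of the 82 Zfp genes of lowest GC content were negative (97.6%), against 68.7% of other genes of that range, 74 of the 81 in the middle (91.4%, against 59.7%) and 57 of the 81 of highest GC content (70.4%, against 41.4%). In cortex replicates 4 and 5 the shares were 86.6% against 61.6%, 88.9% against 57.5% and 66.7% against 43.7%. The shares in cortex replicates 1 to 3 were 58.5% against 32.6%, 54.3% against 45.2% and 63.0% against 64.9%, so that in the highest range the Zfp genes were not more often negative than other genes, and without SH replicate 3 they were 86.6% against 51.7%, 79.0% against 58.3% and 80.2% against 69.3%.

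**Figure D4:**
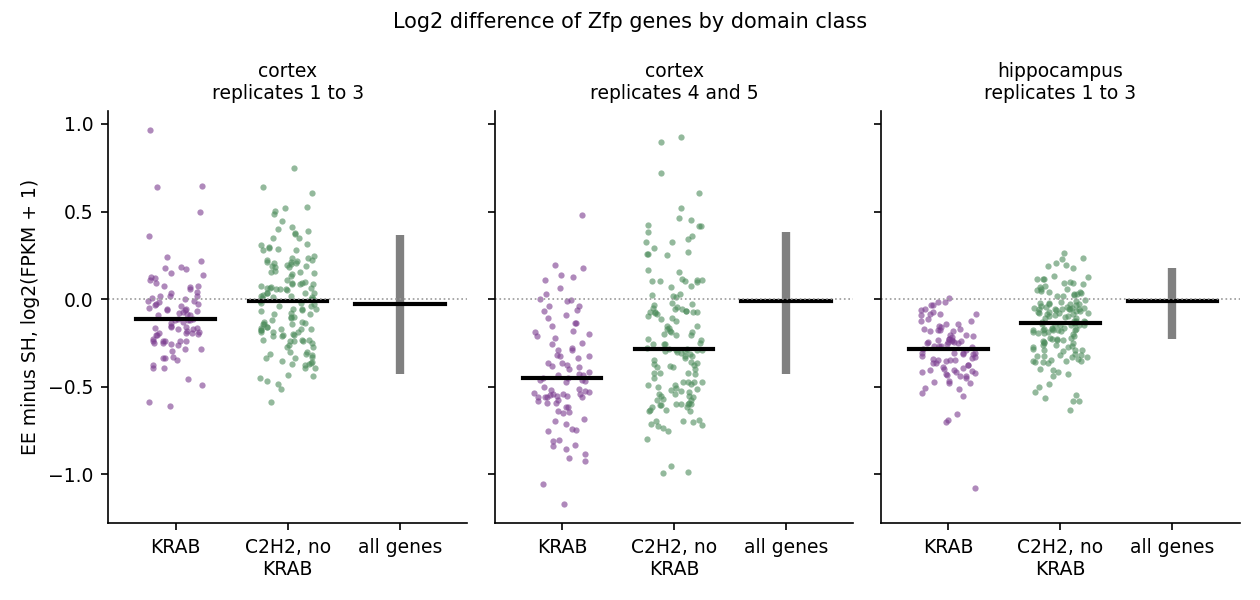
The EE minus SH difference of log2(FPKM + 1) is drawn for each of 91 KRAB genes (purple) and 145 C2H2 genes without a KRAB match (green) in the 3 blocks, with black bars at the medians, beside the median and the 10th to 90th percentile of all genes tested (grey). In hippocampus the KRAB median is -0.28 and that of the other C2H2 genes -0.14, with -0.01 for all genes.

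Zfp genes with known roles in neural development were mixed. Of the 11 listed, 10 passed the level, and Zfp536 did not. Of these 10, 2 were negative in cortex replicates 1 to 3, 6 in cortex replicates 4 and 5 and 8 in hippocampus, with medians of 0.30, -0.31 and -0.09. Without SH replicate 3, 5 of the 10 were negative in cortex replicates 1 to 3, with a median of 0.04. In cortex replicates 4 and 5 limma called 3 of them lower: Zfp365, Zfp462 (3.83 and 6.56 FPKM in EE and 11.7 and 6.84 FPKM in SH, -0.73 ± 0.23, adjusted p = 0.0441) and Zfp292 (3.34 and 6.22 FPKM in EE and 8.73 and 7.92 FPKM in SH, -0.74 ± 0.23, adjusted p = 0.0425). In humans, variants of the genes of the same numbers, ZNF462 and ZNF292, cause neurodevelopmental disorders. Both calls were also lost without EE replicate 4, with differences of -0.40 for Zfp462 and -0.37 for Zfp292. In cortex replicates 1 to 3 the same 2 genes had differences of 0.49 ± 0.40 and 0.39 ± 0.33, and of -0.01 and -0.03 without SH replicate 3. Zfp335, a regulator needed for neural progenitors, had 0.25, -0.04 and 0.07 in the 3 blocks. Zfp423 and Zfp521, related partners of EBF factors with many fingers, had 0.20, 0.10 and -0.04 and 0.35, 0.25 and -0.01. Zfp609, a partner of the cohesin loader Nipbl, had 0.64, -0.59 and -0.17, Zfp711, an X-linked partner of the demethylase PHF8, 0.45, -0.57 and -0.05, and Zfp703 0.10, 0.16 and -0.12.

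The genes of proteins that hold imprints and silence retroelements gave no call between EE and SH in the 3 blocks. Zfp57 and Zfp445, which keep the methylation of imprinted loci, had -0.13, 0.42 and 0.13 and 0.64, -0.25 and -0.05 in cortex replicates 1 to 3, cortex replicates 4 and 5 and hippocampus. Zfp809, which silences retroviruses, had 0.03, -0.07 and -0.41, and Zfp932, which represses endogenous retroviruses, 0.06, 0.42 and 0.06. Zfp568 and Zfp819 did not pass the level rule. Of 10 genes for RNA, ribosome, spindle and SUMO functions, 3, 6 and 5 were negative in the 3 blocks, with medians of 0.14, -0.05 and 0.00 and no call, and the median in cortex replicates 1 to 3 was 0.05 without SH replicate 3. They include Zfp36 (tristetraprolin, which speeds mRNA decay; -0.10, -0.17 and -0.15), Zfp598 (a ubiquitin ligase of collided ribosomes; 0.09, -0.06 and 0.12), Zfp622 (a factor of the large ribosomal subunit; -0.23, 0.36 and 0.12) and Zfp451 (a SUMO ligase; 0.41, -0.64 and -0.18). Of 11 general regulators, 1, 9 and 10 were negative in the 3 blocks, with medians of 0.29, -0.25 and -0.08 and no call there. Without SH replicate 3 there were 4 negative in cortex replicates 1 to 3, with a median of 0.05. Zfp687, Zfp592 and Zfp532, which are related and act together, had 0.21, -0.25 and -0.08, 0.09, -0.71 and -0.32 and 0.29, -0.25 and -0.06. In these regulators, whose transcripts are long (median 6708 bases, against 3494.5 for all Zfp genes), the part of the length trend in these signs was not tested.

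Between the tissues most Zfp genes, like most genes, were somewhat higher in hippocampus. The difference was negative for 64 of 244 Zfp genes (26.2%), against 39.6% of all genes. Over replicates 1 to 3, with 6 libraries a tissue and a term for treatment, limma called 56 Zfp genes. This was a smaller share than the 35.4% it called of the 13158 genes tested. Of the 56 Zfp genes, 50 were higher in hippocampus, where 24.6% of all genes were, and 6 lower, where 10.9% were. The median difference was 0.14 against 0.09 for all genes. At an unadjusted p under 0.05 there were 74 higher, where 30.8% of all genes were, and 13 lower, where 14.4% were. This split depended on the scaling: median-of-ratios scaling moved the median of all genes to -0.01. It gave 45 Zfp calls, 28 higher and 17 lower, where 33.4% of all genes were called, with a Zfp median of 0.04. Quantile normalization gave 20 higher and 24 lower, where 32.1% of all genes were called. The Zfp median was -0.04, with 137 of 244 negative. Removal of the trend on length, GC content and mean level gave 34 higher and 33 lower, where 42.8% of all genes were called. The Zfp median was 0.00. Leaving out each library gave 36 to 74 Zfp calls. There were 36 without hippocampus EE replicate 2, where 27.9% of all genes were called. Without cortex SH replicate 3 there were 74, of which 16 were lower, where 43.7% of all genes were called.

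Among genes higher in hippocampus, Zfp219, a transcription repressor, had 10.7, 11.9 and 9.52 FPKM in EE and 13.6, 9.62 and 10.9 FPKM in SH hippocampus, and 5.68, 6.33 and 6.27 FPKM in EE and 7.51, 6.94 and 6.77 FPKM in SH cortex. Every hippocampal library was above every cortical one, and the difference was 0.66 ± 0.09 (limma adjusted p = 0.000225). Zfp687 averaged 7.34 ± 1.23 FPKM in hippocampus and 3.87 ± 0.572 FPKM in cortex (SD, n = 6 each), also without overlap, a difference of 0.77 ± 0.12 (adjusted p = 0.000445). Zfp598 averaged 16.9 ± 1.16 FPKM in hippocampus and 12.7 ± 0.679 FPKM in cortex (0.38), Zfp113 3.72 ± 0.818 FPKM in hippocampus and 2.08 ± 0.510 FPKM in cortex (0.62) and Zfp664 29.9 ± 3.65 FPKM in hippocampus and 20.5 ± 2.85 FPKM in cortex (0.53). The imprint factor Zfp57 was higher too, with 41.9 ± 8.16 FPKM in hippocampus and 28.0 ± 3.09 FPKM in cortex (SD, n = 6 each; 0.55 ± 0.13, adjusted p = 0.00693), although SH replicate 1 of hippocampus, at 28.5 FPKM, lay within the range of cortex. Zfp462 (0.75 ± 0.25, adjusted p = 0.0332), Zfp703 (0.45 ± 0.10, adjusted p = 0.00541), Zfp335 and Zfp423 of the neural list were called higher too, but the calls of Zfp335, Zfp423 and Zfp462 were lost under median-of-ratios scaling, with adjusted p values of 0.122, 0.110 and 0.0518, while that of Zfp703 was not. With 1 library left out, those of Zfp335, Zfp423 and Zfp462 were lost in 6, 7 and 5 of 12 cases. By class, 14 of 91 KRAB genes were higher and 0 lower, and 34 of 145 other C2H2 genes higher and 4 lower, where 24.6% of all genes were higher and 10.9% lower. With quantile normalization there were 5 KRAB genes higher and 6 lower, and 14 other C2H2 genes higher and 16 lower, where 16.4% of all genes were higher and 15.7% lower.

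Of the 6 genes lower in hippocampus, Zfp365 and Zfp503 differed most. Zfp365 had 1.94, 2.59 and 2.17 FPKM in EE and 3.70, 3.05 and 3.48 FPKM in SH hippocampus, and 5.28, 5.56 and 4.95 FPKM in EE and 6.58, 7.28 and 4.49 FPKM in SH cortex. The tissues did not overlap, and the difference was -0.81 ± 0.11 (limma adjusted p = 0.000227). Zfp503 (Nolz1), a repressor known from the developing striatum, had 0.804, 1.88 and 1.84 FPKM in EE and 2.91, 0.811 and 0.847 FPKM in SH hippocampus, and 3.32, 3.64 and 4.22 FPKM in EE and 4.10, 4.57 and 3.01 FPKM in SH cortex, a difference of -0.99 ± 0.19 (adjusted p = 0.002). Hippocampus SH replicate 1, the library with the highest choroid plexus sum, was the highest of the hippocampal ones in Zfp503. Hippocampus EE replicate 1, with a choroid plexus sum of 5089 FPKM, was the lowest. EE replicates 2 and 3 had nearly the same Zfp503 level, with sums of 10517 and 40.8 FPKM. The part of these cells was not tested. Zfp575 (-0.65), Zfp467 (-0.36), Zfp428 (-0.56) and Zfp580 (-0.45) were lower as well, the last 2 at adjusted p values of 0.0377 and 0.0403, and each of these 2 calls was lost with any 1 of 7 of the 12 libraries left out. Without cortex SH replicate 3 their differences were -0.38 and -0.30, and both were called. The test of whether the EE difference itself differed between hippocampus and cortex replicates 1 to 3 gave 0 calls among the 13158 genes (0%) in limma, with 5 Zfp genes lower and 4 higher at an unadjusted p under 0.05, where 2.14% and 5.39% of all genes were. The smallest adjusted p was 0.495 (Zfp507, Zfp593, Zfp511, Zfp704 and Zfp629). The median of this double difference was -0.19, and it was -0.06 without cortex SH replicate 3.

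**Figure D5:**
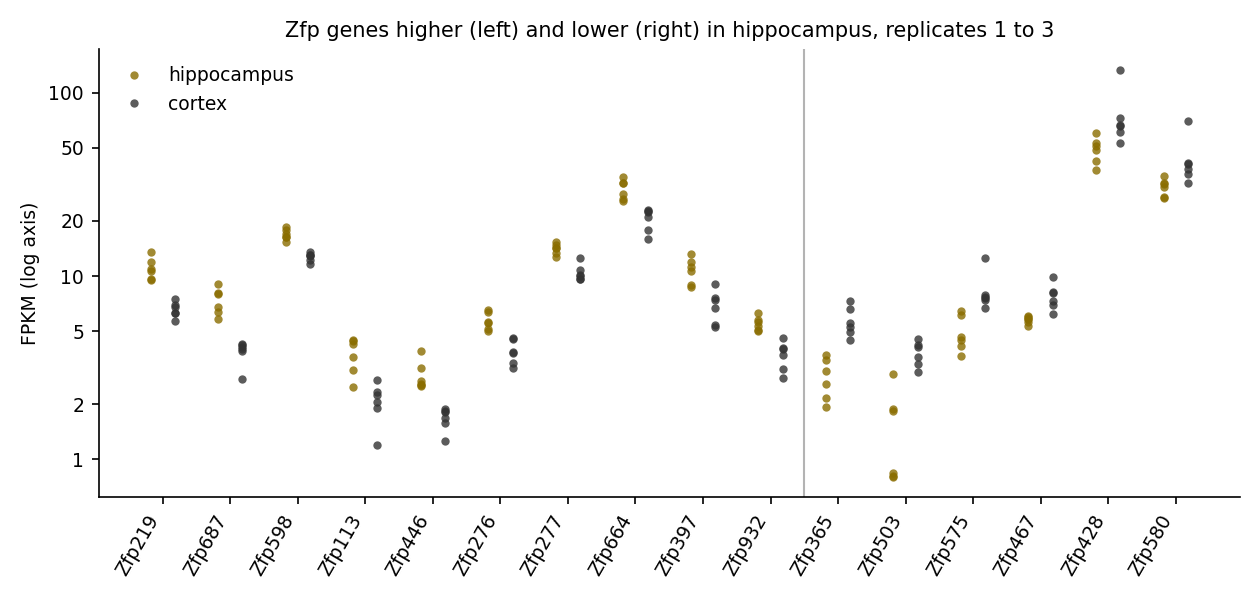
FPKM on a log axis is drawn per library of replicates 1 to 3, hippocampus (ochre) left of cortex (grey), for the 10 Zfp genes higher in hippocampus with the smallest p and for the 6 called lower. Zfp219 runs from 9.52 to 13.6 FPKM in hippocampus and from 5.68 to 7.51 FPKM in cortex, and Zfp503 from 0.804 to 2.91 FPKM in hippocampus and from 3.01 to 4.57 FPKM in cortex.

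Zinc finger genes with other names were set beside the Zfp genes. Of 44 genes with BTB or SCAN names (Zbtb, Zscan and Zkscan) under the same level rule, 37 were negative in hippocampus, 41 in cortex replicates 4 and 5 and 18 in cortex replicates 1 to 3, with medians of -0.18, -0.38 and 0.08. In cortex replicates 4 and 5 limma called 2 of them, Zkscan1 (-1.16, adjusted p = 6.09e-05) and Zscan25 (-0.77, adjusted p = 0.0276), both lower in EE. Of 21 Zfp symbols that end in letters, 17, 18 and 6 were negative, with medians of -0.25, -0.36 and 0.16, and 3 were called lower in cortex replicates 4 and 5, Zfp780b (-1.03), Zfp874a (-0.75) and Zfp518b (-0.72). Of 19 genes for KRAB corepressors and heterochromatin proteins, 15, 14 and 7 were negative, with medians of -0.08, -0.12 and 0.10 and no call in any block. Trim28, the corepressor that KRAB boxes bind, had -0.0019, 0.13 and -0.16 in hippocampus, cortex replicates 4 and 5 and cortex replicates 1 to 3, and Setdb1, the methyltransferase it recruits, had -0.12, -0.15 and 0.19. In the comparison of tissues limma called 7 of the 19 higher in hippocampus, where 24.6% of all genes were, and 1 lower, where 10.9% were, and with median-of-ratios scaling 2 were higher and 1 lower. Without SH replicate 3 the medians in cortex replicates 1 to 3 were -0.07 for the genes with BTB or SCAN names, -0.06 for the Zfp symbols that end in letters and -0.05 for the corepressor genes, all of the opposite sign to those over all libraries.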

How the data were processed

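RNA of fetal mouse cortex and hippocampus was harvested with Trizol and made into libraries with a NEBNext Ultra kit, per the labels' protocols. The authors deposited 1 table of FPKM values per library; StringTie 1.3.4d, HISAT2 2.0.4 and cutadapt 1.9 and the build mm10 appear in the submitters' processing notes, while the annotation and gene filter are not given in the sources used here. A gene not listed was treated as missing, never as 0.

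The members and lists were chosen with earlier results of these data known. Two-sided limma tests (version 3.58.1, R 4.3.3, lmFit and eBayes with trend) were run on log2(FPKM + 1), over all genes that every library compared lists and whose mean is 1 FPKM or more, with Benjamini-Hochberg adjustment over all of them and a threshold of 0.05. A fold on this scale understates the change of low genes. Repeated symbols were left out (1). FPKM steps gave whole reads for 99.8 to 99.9% of genes at a tolerance of 0.003 reads, used for limma-voom. The fits were tested on simulated data. Gene models, transcript length, GC content and protein patterns (C2H2, KRAB A box) came from GENCODE M21, and promoter windows from RefSeq.

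Named genes are the 10 with the smallest p in each direction for each treatment comparison by block and for the tissues, 5 for all cortex replicates and for the double difference, the highest and lowest levels, those apart in all blocks, the role lists, and calls of 10 or fewer. The chromosome 13 neighbours and the genes named from other lists were added outside the rule, once their values were known. Some genes that the rule selects are left out of the text. Replicate numbers were taken from the labels, which do not say whether equal numbers mark paired libraries. The main fits did not pair them.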

Additional observations from a re-analysis of the deposited data

Results flagged for a closer look

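Groups of 5 cortex libraries, 180 in all, were formed for 89 named Zfp genes and the median of all Zfp genes. They were searched for a single library far from the other 4, and 14 were found. For independent groups chance gives about 1 in 20. These groups share libraries and pool both sets of replicates, so that rate is no benchmark for them. In cortex EE, replicate 4 was far out for Zfp207 (30.7 FPKM, next 23.7), Zfp326 (12.9, next 10.4), Zfp369 (0.839, next 2.80), Zfp384 (14.9, next 11.5) and Zfp598 (15.7, next 13.6), replicate 5 for Zfp608 (3.91, next 5.23) and replicate 2 for Zfp747 (2.36, next 1.66). In cortex SH, replicate 3 was far out for Zfp148 (4.66, next 8.95), Zfp593 (11.3, next 7.34), Zfp638 (10.5, next 17.8), Zfp748 (3.16, next 5.07), Zfp932 (2.77, next 4.02) and Zfp954 (12.7, next 10.8), and replicate 4 for Zfp873 (3.98, next 3.28).

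In 11 of the 244 Zfp genes (4.51%), 10 of them named, each EE library lay on one side of the SH libraries in one set of cortex replicates and on the other side in the other set, where 9.41% of all genes did so. This difference was not tested. Higher in EE in replicates 1 to 3 and lower in replicates 4 and 5 were Zfp106 (0.52 and -0.30), Zfp251 (0.35 and -0.49), Zfp318 (0.53 and -0.13), Zfp451 (0.41 and -0.64), Zfp652 (0.61 and -0.95), Zfp687 (0.21 and -0.25) and Zfp91 (0.31 and -0.18). Lower in EE in replicates 1 to 3 and higher in replicates 4 and 5 were Zfp277 (-0.16 and 0.45), Zfp414 (-0.34 and 0.46) and Zfp771 (-0.43 and 0.92).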

How the results depend on the processing

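In hippocampus the median Zfp difference kept its sign under every alternative run, and with a library left out it ran from -0.23 to -0.16. In cortex replicates 1 to 3 it ran from -0.14 to 0.0071 with a library left out, the sign turning without SH replicate 1. In cortex replicates 4 and 5 the 26 calls among 244 Zfp genes became 17 among 147 over genes of 5 FPKM or more, where 3.89% of all genes were called. They became 17 among 244 with quantile normalization, where 2.92% were, and 15 among the 149 members of at least 5 FPKM, where 3.46% were. With the trend on length, GC content and mean level removed they became 0, where 0% of all genes were called. The median was -0.42 with a pseudocount of 0.01, -0.25 with the trend removed and -0.42 to -0.29 with a library left out. Over all cortex replicates 1 Zfp gene was called with the trend removed, where 0.0485% of all genes were. Between the tissues the 56 calls among 244 Zfp genes became 37 among 149 over genes of 5 FPKM or more, where 30.6% of all genes were called. With a library left out they became 36 to 74, where 27.9% to 43.7% of all genes were called. The median was -0.037 with quantile normalization and 0.0014 with the trend removed. The double difference had a median of -0.044 with the trend removed and of -0.24 to -0.056 with a library left out. The cause was not tested.

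A fit with the replicate block called 38 Zfp genes in cortex replicates 4 and 5, where 6.09% of all genes were called. It called 46 between the tissues, where 33.1% of all genes were, and 0 Zfp genes in the other comparisons. Same-numbered EE and SH libraries had correlations of their deviations of 0.367, 0.071 and 0.380 in cortex replicates 1 to 3. They were 0.135 in replicates 4 and 5 and -0.095, -0.557 and 0.444 in hippocampus. Such uneven values cannot decide whether equal numbers mark paired libraries. The 47 calls of 89 named genes were lost in 154 of 878 cases, 98 of them with a library left out, and none changed sign. Low genes have few reads, which limits what a difference in them can show.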
